A study of Homo sapiens with 2 samples.

Results

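FASN is the gene of fatty acid synthase, and 23 of the 1920 eIF4A1 peaks lie in it. The members were chosen as every peak that the authors' annotated table lists under the FASN gene ID, each joined by its peak name to the peak track. The gene was singled out because of these same values, so its peak number, folds and p-values are given as a description, with no test. All 23 summits lie inside the RefSeq span of FASN on chromosome 17, from 82078338 to 82098236 (hg38), and the gene is read from the higher coordinate to the lower one.

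Fatty acid synthase is a single large cytosolic polypeptide that carries several catalytic sites. It builds palmitate from acetyl-CoA and malonyl-CoA with NADPH as the reductant. Its transcription is driven by the sterol regulatory element-binding proteins, and many prostate tumours contain more of the enzyme than normal prostate epithelium. eIF4A1 is an RNA helicase that opens structure in the leader of an mRNA so that the small ribosomal subunit can load and scan.

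RNA was recovered from a cytoplasmic lysate of DU145, an established human prostate cancer cell line, with a rabbit antibody against eIF4A1 (1 library) or with control rabbit IgG (1 library). The eIF4A1 and IgG precipitations drew on the same pre-cleared lysate, and no treatment or genetic change is given for the cells. The peaks carry the name of the eIF4A1 library and were called over a control; the sources used here do not say whether that control was the IgG library or the input. With 1 library per group no value has a replicate error, and the intervals below cover counting error only. None of the epithelial markers KRT8, KRT18, EPCAM and CDH1, looked up to check the label, was named for a peak, against 6.83% of all protein-coding genes, and a peak list cannot show whether these transcripts were absent.

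The FASN peaks ran from 2838 bases inside the 5′ end of the gene to 87 bases short of its 3′ end. First and last summit were 16973 bases apart, 85.3% of the 19899-base gene, and the 23 intervals together covered 2148 bases, or 10.8% of it. Neighbouring summits were 228 to 2117 bases apart, with a median of 579.5. Of the 22 gaps, 4 were under 300 bases and 5 were over 1000.

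The summits were not spread evenly. With the gene divided into 3 sections of 6633 bases, the 5′ section held 3 of them, the middle section 9 and the 3′ section 11. Within 3000 bases of the 5′ end lay 1 summit, and within 3000 bases of the 3′ end lay 6. The first 2838 bases, which begin at the annotated start of the gene, held no summit. Distances are along the genome, introns included.

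The authors' fold, a linear ratio of eIF4A1 over control, ran from 3.52 to 13.3 at FASN, with a median of 6.91. By the formula assumed below for the caller, 1 is added to both the reads and the background. Over a low background the fold therefore follows the read number and is not the plain ratio of reads to background. Over all 1920 peaks the median fold was 3.99, and 21 of the 23 FASN peaks were above it. The top 20 peaks by fold held 3 from FASN, and the top 100 held 12. A −log10 q of at least 5 was reached by 12 of the 23, where 26.3% of all peaks reach it. Since FASN was chosen from this contrast, nothing further is read from these shares.

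**Figure D1:**
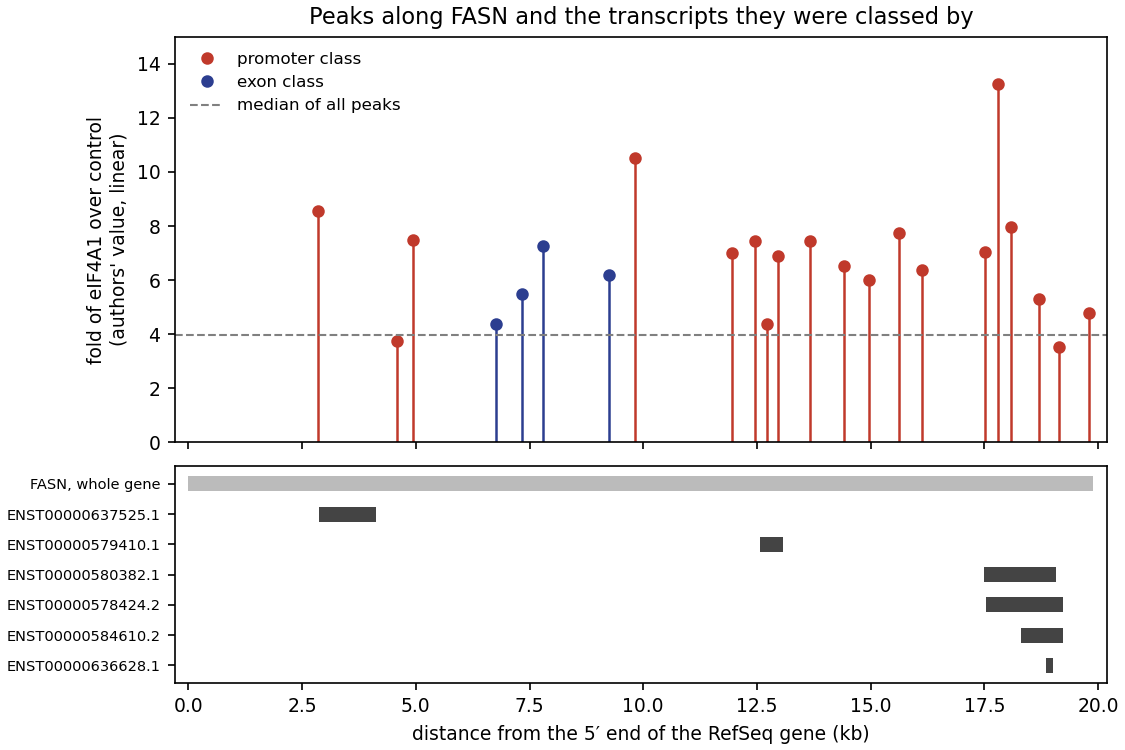
Upper panel: the authors' fold of eIF4A1 over control (linear axis) at each of the 23 FASN summits, against distance in kb from the 5′ end of the RefSeq gene, with promoter-class peaks in red, exon-class peaks in blue and the median of all peaks, 3.99, as a dashed line. Lower panel: the whole gene and the 6 transcripts by which the peaks were classed, to scale; the peaks extend along the gene, while the named transcripts are short pieces of it.

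The highest fold was at the 19th summit from the 5′ end (82080442, peak interval 82080380 to 82080453), which lies 2104 bases from the 3′ end. It had a fold of 13.3, a −log10 p of 25.4 and a −log10 q of 17.1, the highest fold in the data set. Its neighbours stood 287 and 278 bases away, with folds of 7.96 at 82080155 and 7.03 at 82080720. These 3 summits formed the closest run in the 3′ section.

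The second-highest fold was in the middle of the gene. The peak with its summit at 82088408 had a fold of 10.5 and a −log10 q of 11.5, ranked 7th by fold over all peaks, and at 314 bases was the widest in FASN. The next peak downstream was 2117 bases away, the longest gap in the gene. The peak nearest to the 5′ end (summit 82095398) came next, with a fold of 8.55, a −log10 q of 9.99 and rank 11.

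The lowest folds lay at 2 peaks under the median of all peaks. The peak at 82079102, which lies 764 bases from the 3′ end, had a fold of 3.52 and a −log10 q of 2.08. The peak at 82093657, in the 5′ section, had a fold of 3.74 and a −log10 q of 1.54, the weakest q in FASN. These 2 peaks differed in the number of reads beneath them, which could be recovered from the deposited values.

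For each peak, the fold and the −log10 p together fix the number of eIF4A1 reads stacked at the summit and the background they were set against. The FASN summits held 3 to 18 eIF4A1 reads, with a median of 8, against a median of 3 over all peaks. At least 5 reads stood at 21 of the 23 summits, where 26.7% of all peaks have 5 or more. At least 8 stood at 12, where 7.71% of all peaks have 8 or more. At least 10 reads stood at 7 of the 23, where 4.58% of all peaks have 10 or more. Of all 88 peaks with 10 or more reads, 7 were in FASN. The 18 reads at 82079102 were the highest number at any of the 1920 summits (exact Poisson 95% interval 10.7 to 28.4), and yet this peak had the lowest fold in FASN.

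The background is on the scale of eIF4A1 reads, and its values fell in whole steps: 1 control read at the summit counted as 0.880. The peak of 18 eIF4A1 reads stood over 5 control reads, and the peak at 82091469 had 15 eIF4A1 reads over 3 control reads and a fold of 4.40. A further 5 peaks had 1 control read each, at 82085789 and 82084575 (13 eIF4A1 reads and a fold of 7.45 at both), 82082099 (11 reads, 6.38), 82079539 (9 reads, 5.32) and 82078425 (8 reads, 4.79).

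The other 16 FASN summits had 0 control reads stacked on them, including the 3 with the highest folds. Those 3 held 14, 11 and 8 eIF4A1 reads in order of fold. A count of 0 allows up to 3 control reads, which are 2.64 on the scale of eIF4A1 reads. The intervals at the summits with 3, 4, 5 and 6 eIF4A1 reads began at 0.619, 1.09, 1.62 and 2.20, below that limit. At these summits the interval of the eIF4A1 reads thus overlaps what a control count of 0 allows at this depth. Such an overlap is not a test, and the counts themselves were not compared. At the summits with 7 reads the interval began at 2.81, close to the limit. The 7 summits that had control reads were not set against a limit of this kind.

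Read number and fold are tied to the control reads by the way peaks are called. The fold falls by its formula as control reads are added, and a summit over control reads needs more eIF4A1 reads to pass: the fewest at any such peak in the data set were 8, against 2 over all peaks. The values of the 7 FASN summits with control reads and the 16 without are therefore only a description. With control reads, eIF4A1 reads ranged from 8 to 18 (median 13) and folds from 3.52 to 7.45 (median 5.32). Without them, eIF4A1 reads ranged from 3 to 14 (median 7) and folds from 3.74 to 13.3 (median 7.01). Both ranges overlap. Summits with control reads made up 30.4% of FASN peaks, and 5.62% of all peaks had them. The order of the FASN summits by fold was thus not their order by eIF4A1 reads.

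**Figure D2:**
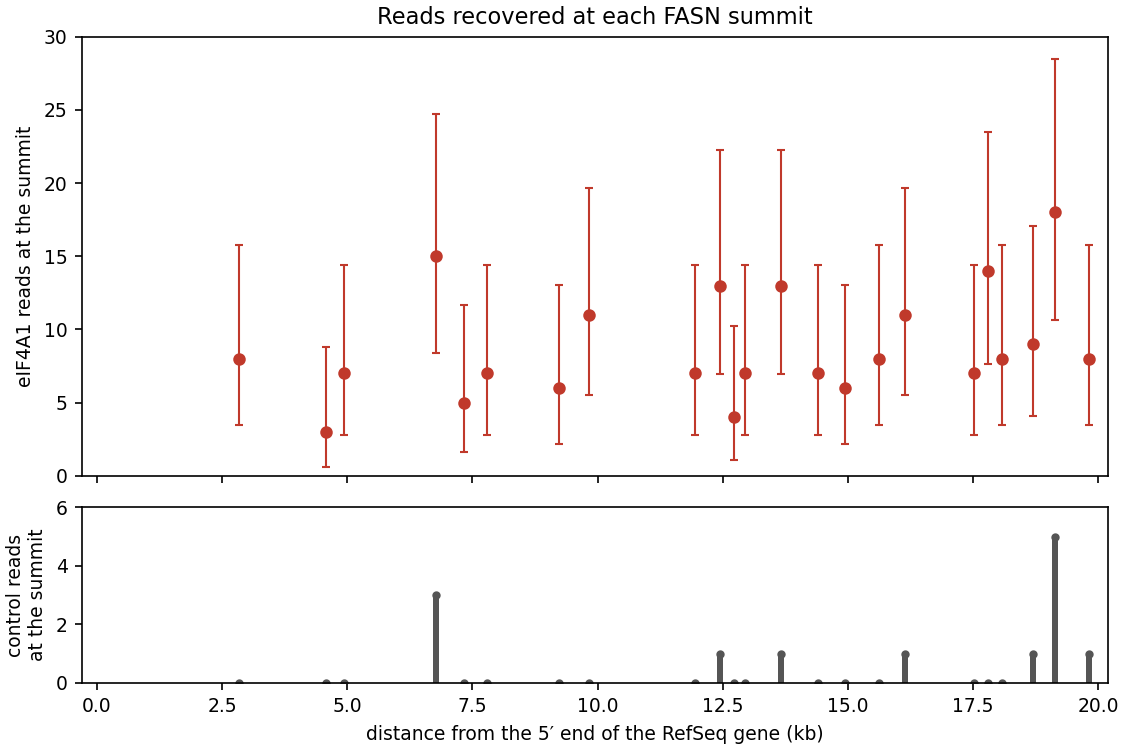
eIF4A1 reads (upper panel, points with exact Poisson 95% intervals) and control reads (lower panel, bars) recovered at each of the 23 FASN summits, against distance in kb from the 5′ end of the RefSeq gene. The summits with 18 and 15 eIF4A1 reads also carry the most control reads, 5 and 3, and 16 summits carry 0.

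Added over the 23 summits, 202 eIF4A1 reads stood against 13 control reads. The summits were placed where eIF4A1 reads pile up, so this pair of sums describes the peaks and not the transcript. In the 5′ section the sums were 18 eIF4A1 reads and 0 control reads, in the middle section 75 and 4, and in the 3′ section 109 and 9. Per summit, the median was 7, 7 and 8 eIF4A1 reads from the 5′ to the 3′ section, so the 3′ section had more summits, and its median summit differed from the others by 1 read, within counting error. The intervals of single summits were wide, for instance 7.65 to 23.5 for the 14 reads at the highest fold and 3.45 to 15.8 for the 8 reads nearest to the 5′ end, and these overlap.

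Where no control read stood at the summit, the background came from the control reads in a wider window around it. At 10 FASN summits it can only have been the 10 kb window, which held 52 to 96 control reads, with a median of 76.5. At the other 6 the value by itself fits a 10 kb window or a 1 kb window with fewer reads. For the summit 82083831 it was 130 per 10 kb. Its 10 kb window lies within the 2 adjoining windows described below, which held 132 control reads together. The 3 control reads at 82091469 and the 1 at 82078425 fall outside it, so only a 1 kb window is left there. From the 5′ end, the 10 kb windows held 52, 57 and 74 control reads at the first 3 of these 10 summits. They held 82, 81 and 96 in the middle of the row, and 91, 78, 75 and 74 at the last 4. The control library thus also held FASN reads along the gene. The windows near either end reach beyond the gene. For all peaks above the genome-wide background, the median was the equivalent of 11.5 control reads per 10 kb. That median also takes in backgrounds from 1 kb windows and from control reads at the summit, so it is not a like measure.

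**Figure D3:**
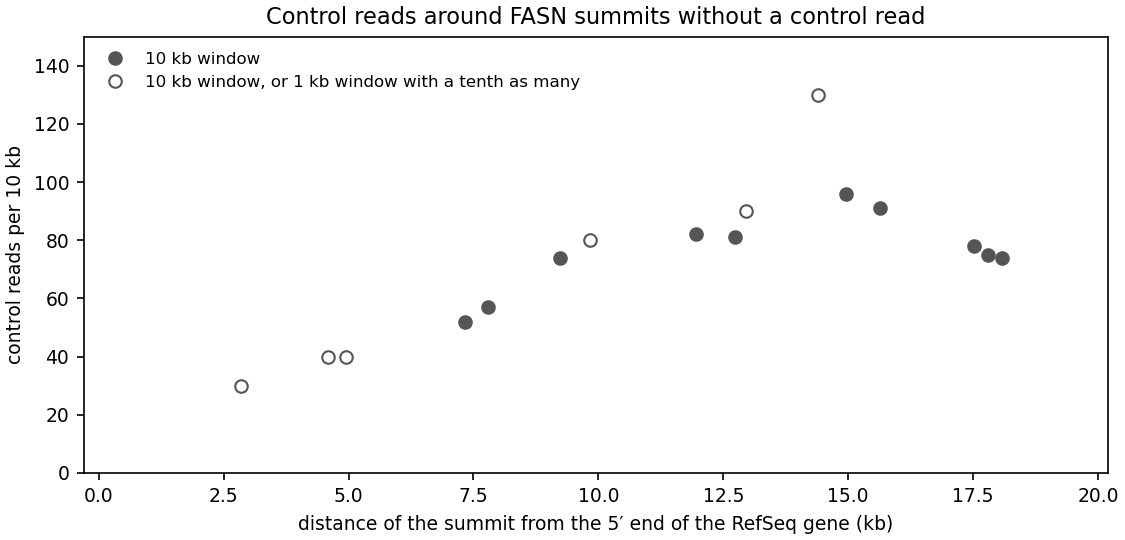
Control reads per 10 kb recovered at the 16 FASN summits with 0 control reads on them, against distance in kb from the 5′ end of the RefSeq gene. Filled points can only be 10 kb windows. Open points by their value fit a 10 kb window or a 1 kb window, but the one at 130 can only be a 1 kb window. The filled points lie between 52 and 96.

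These windows also give an upper limit for the control reads over the gene, which do not depend on where the summits were placed. The summits 82090442 and 82080442 are exactly 10000 bases apart, so their windows adjoin and cover 82075442 to 82095441. They held 57 control reads in the 5′ window (interval 43.2 to 73.8) and 75 in the 3′ window (59.0 to 94.0), or 132 together. The remaining 2795 bases at the 5′ end can add at most 30, which is the window value at the summit nearest to that end, and so the gene held at most 162 control reads.

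Scaled to the depth of the eIF4A1 library, the reads of the 2 windows together are 116, and the upper limit for the gene is 142. The 3′ window reaches beyond the 3′ end of the gene, so the gene itself may hold fewer than 116. The eIF4A1 reads over the gene are not in the files. Those at the summits, 202, were counted only where eIF4A1 reads pile up, in a gene chosen for its many peaks, so no ratio of eIF4A1 to control over the whole gene is given. The sources used here do not say whether the 2 mates of a fragment were counted separately, and if they were, 1 fragment could stand at 2 summits.

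**Figure D4:**
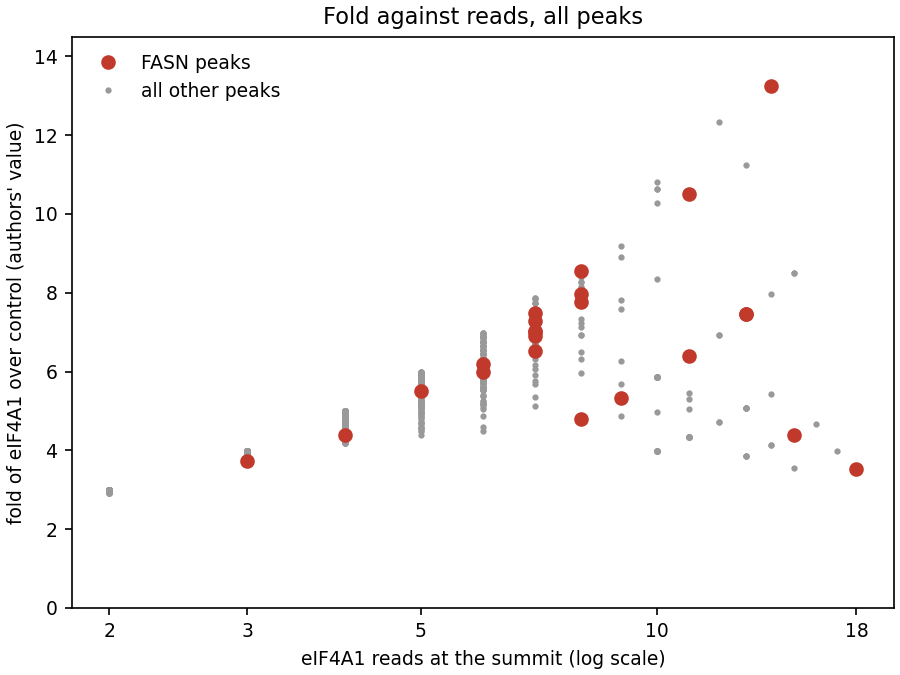
The authors' fold of eIF4A1 over control (linear axis) against eIF4A1 reads at the summit (log axis) for all peaks, with the 23 FASN peaks in red. The FASN peaks range from the point of 14 reads and a fold of 13.3, the highest fold of all peaks, to the point of 18 reads and a fold of 3.52, the most reads of all peaks.

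Among peaks of equal read number the fold, by its formula, follows the background. FASN had 6 peaks of 7 reads, with folds from 6.51, over a background of 0.229, to 7.47, over 0.0704. The median background at FASN was 0.144 on the scale of eIF4A1 reads, and over all peaks it was 0.0176. FASN peaks were also wider, with a median of 74 bases and a range of 21 to 314, where the median of all peaks was 27 bases.

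The authors' annotation put 19 of the 23 FASN peaks in the promoter class, meaning within 3 kb of an annotated transcript start, and 4 in the exon class. Over all annotated peaks the promoter class held 57.3%. In FASN these 19 lay 2838 to 19811 bases from the 5′ end of the gene, with a median of 14405. They were classed by their distance to 6 short transcripts of the gene that are 157 to 1689 bases long, so the class names here a distance to the start of a short transcript inside the gene.

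The transcript ENST00000579410.1 (503 bases, 82085158 to 82085660) was named for 10 peaks, and ENST00000637525.1 (1273 bases, 82094104 to 82095376) for 5. ENST00000580382.1 and ENST00000636628.1 were named for 3 each, and ENST00000578424.2 and ENST00000584610.2 for 1 each. Relative to these starts, 11 promoter-class summits lay downstream and 8 upstream, with a median distance of 631 bases. Only 2 lay within 100 bases of the named start: the summit nearest to the 5′ end of the gene, 22 bases upstream of ENST00000637525.1, and 82080720, 22 bases downstream of ENST00000580382.1. No summit was classed in a 5′ or a 3′ UTR. Each peak carries a single class, so this does not show that none lies in a UTR. The last summit, 87 bases from the end of the gene, was in the promoter class, 953 bases downstream of the start of ENST00000636628.1.

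The 4 exon-class peaks carry exon numbers in the 43-exon transcript ENST00000306749.4. They lie in exon 9 (summit 82091469, fold 4.40, 15 reads), exon 10 (82090900, 5.50, 5 reads), exon 11 (82090442, 7.27, 7 reads) and exon 14 (82088998, 6.19, 6 reads). They form 1 block between 6767 and 9238 bases from the 5′ end, beyond 3 kb of any of the 6 short transcripts' starts. The exon numbers of the other 19 are not given in the annotated table. The small nucleolar RNA gene SNORD134 lies inside FASN at 82089960 to 82090140 and held 0 summits; the nearest FASN summit was 302 bases from it.

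Outside the gene, no further peak was listed within 50 kb on either side. DUS1L, the neighbour on the 3′ side, which encodes a tRNA dihydrouridine synthase-like protein, and CCDC57, the neighbour on the 5′ side, each held 0 summits.

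By number of peaks, the genes most like FASN in this 1 eIF4A1 library were CIC and BCAM with 7 each and PITPNM1 with 6. CIC encodes a transcriptional repressor, BCAM a laminin-binding surface glycoprotein and PITPNM1 a phosphatidylinositol transfer protein. Per kb of gene, FASN had 1.16 peaks, against 0.566 for BCAM, 0.345 for PITPNM1 (5 of its peaks lie inside it) and 0.257 for CIC. Summed over summits inside the gene, FASN had 202 eIF4A1 reads, against 59 for BCAM, 58 for CIC and 14 for PITPNM1. The median fold was 6.91 for FASN, against 5.61 for BCAM, 4.79 for CIC and 3.93 for PITPNM1. Their ranges overlap, since BCAM reached 6.43 and CIC 12.3.

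CIC resembled FASN in the spread of its summits, which spanned 80.5% of the gene, against 73.5% in BCAM and 53.0% in PITPNM1. Control reads stood at 4 of the 7 CIC summits and 2 of the 7 BCAM summits, and at 0 of 5 in PITPNM1. Median reads per summit were 10 in CIC, 9 in BCAM and 3 in PITPNM1. Single FASN summits, with a median of 8, were thus not deeper than those of CIC and BCAM, but were deeper than those of PITPNM1. FASN had more summits than any of them. These are 4 genes of 1 library, and no test of the differences was made.

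FASN works downstream of enzymes that supply its substrates and upstream of those that elongate and desaturate its product. A list of 44 fatty acid synthesis genes and regulators, without FASN, was wider than these steps. It had 9 members named for a peak (20.5%, exact interval 9.80 to 35.3), where 6.83% of protein-coding genes had one. At a −log10 q of at least 5 the list had 5 members (2.1% of protein-coding genes), and by summits inside the RefSeq span 10 (6.98%), ELOVL2 being added. The median best fold of these 9 was 4.91, against 3.99 over all genes with a peak. ACLY, which makes cytosolic acetyl-CoA from citrate, had 3 peaks and a best fold of 8.51 on 15 reads. ACACA, which makes malonyl-CoA, had 4 peaks and a best fold of 5.90 on 5 reads.

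Among enzymes that act on the product, HACD3, a dehydratase of fatty acid elongation, had a fold of 4.91. SCD, the desaturase that introduces a double bond into saturated acyl chains, had 2 peaks and a best fold of 4.75, and ACSL3, an acyl-CoA synthetase, had 4.32. Each of these rested on 4 reads. Among regulators, MLXIPL, a carbohydrate-responsive transcription factor, and the liver X receptor gene NR1H3 each had 1 peak with a fold of 4.91 on 4 reads. SCAP, which escorts sterol regulatory element-binding proteins out of the endoplasmic reticulum, had a fold of 2.99 on 2 reads. None of these genes had more than 4 peaks, and the list was written with earlier results of these data known, so its share is not independent evidence about the pathway.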

How the data were processed

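The tools named, per the submitters' processing notes, are ChIPseeker, MACS2, BWA, DESeq2, Picard, Salmon and STAR, without versions, settings or order. The deposited track has the narrowPeak layout. It gives, per the file headers, each peak's interval, a score, a fold as a linear ratio, and −log10 p and −log10 q values. The deposited annotated table adds a summit, a class and a gene ID for 1919 of 1920 peaks. The track is filed under the IgG sample, but its peaks are named after the eIF4A1 library.

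The deposited values hold no counts. Reads n and background b were solved from fold = (n + 1)/(b + 1) and the Poisson probability of more than n reads, with scipy 1.17.1 under Python 3.11.15. This formula is an assumption about the caller. All 1920 peaks were met to within 0.000761 in −log10 p, and the solver was tested on simulated data. The most frequent background near 1, 0.880, was taken as 1 control read, which makes the eIF4A1 library 0.880 times as deep as the control. Of 1920 backgrounds, 314 equal the lowest value. The other 1606 are whole numbers of control reads per 10 kb (largest distance 0.00266) if the fragment length is 20 bases, the shortest peak width, and the windows are 1 kb and 10 kb. With a genome size of 2.7e9 bases, the caller's usual setting for human, the lowest value corresponds to about 402000 eIF4A1 reads and 457000 control reads. The sources used here do not say whether duplicates were removed.

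Coordinates are hg38, 1-based, and gene spans and symbols are from RefSeq (GRCh38.p14). The files name no strand for the peaks. The members, lists and naming rule were chosen with earlier results of these data known. The rule named every FASN peak, the 3 genes nearest in peak number, the neighbouring genes and up to 8 list members by fold. Alternatives were stricter q, read and background limits, merging of near peaks and RefSeq spans. Intervals are exact and cover counting error only. One marker lookup is not reported here.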

Additional observations from a re-analysis of the deposited data

How the results depend on the processing

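The number of FASN peaks was 12 with a −log10 q of at least 5, a limit that kept 26.3% of all peaks. It was also 12 where the p held over at least 1 control read, which kept 148 of all 1920 peaks. As deposited it was 23, and 11 promoter-class peaks were left under both settings. The median spacing was then 1885 and 1214 bases, against 579.5, and at the stricter q the median fold was 7.46, against 6.91. Fewer peaks enter these settings by construction. The other 31 of 38 recomputed values moved by less than 1.5 times or stayed inside their interval, including all those with at least 5 reads, with near peaks merged, with RefSeq spans and, chosen after the data were seen, with summits of 0 control reads only. Merging peaks 100 bases or less apart joined none, since FASN kept 23. The 44-gene list had 11.4% of its members with a peak at the stricter q and 22.7% by RefSeq span, against 20.5% as deposited. With 1 library per antibody no replicate was left out. No paired analysis was possible because there is only 1 pair of libraries. Depth limits single summits: most held under 10 reads, so differences of a few reads between them are within counting error.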
